A study of Mus musculus with 2 samples.

Results

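The Fox and Sox genes encode transcription factors, and 63 of the 21938 protein-coding genes in the mouse annotation (GENCODE M21, genome build mm10) belong to them by symbol: 44 Fox genes and 19 numbered Sox genes. No measured value entered the rule, though the choice was made with earlier results of these data known. Open chromatin around them was read from ATAC-seq, an assay whose transposase cuts DNA that nucleosomes leave free and tags the fragments for sequencing. Both libraries were biological replicates of 1 group, each made from 50000 primary megakaryocyte progenitor cells of adult male C57BL/6J mice at an age of 5 to 6 weeks. The labels name no genetic change and no treatment, and there was no other condition. Megakaryocyte progenitors are the bone marrow precursors of the cells that shed platelets. A code in the labels, CFU-M, is left uninterpreted.

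The lists of open regions that the authors deposited were used. The conservative list was made from both replicates and kept peaks that passed a threshold on their irreproducible discovery rate (IDR), and each replicate also has its own IDR-thresholded list. A region counts as a promoter region of a gene when its strongest summit, the point of highest accessibility, lies within 1 kb of a start site of a protein-coding transcript of the gene. It counts as distal when the summit lies within 50 kb of the gene's 5′ end and the region is a promoter region of no protein-coding gene. The signal of a region is the value that the authors' peak caller gave it. It has no unit, and no scaling between libraries is stated. The number of reads per library is unknown, so no interval could be set on a signal, and with 1 group and 2 libraries no test was made. Where a region is not listed, it did not pass the list's threshold, which does not show that the DNA is closed.

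Fox proteins bind DNA through a winged-helix fold, the forkhead domain, and Sox proteins through an HMG box that bends the DNA. Several factors of both families can bind nucleosomal DNA and are known for setting tissue identity in the embryo. In blood, FOXO factors are known for protecting stem cells from oxidative stress when growth factor signalling is low, FOXP factors for roles in lymphocytes, FOXM1 for driving mitotic genes, SOX4 for roles in lymphoid progenitors and leukaemia, SOX6 for the maturation of red cells, and SOX17 for fetal blood stem cells.

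Sequences of 151 bases around the summits show the kinds of DNA that were open at these genes. They are from the plus strand of GRCm38.p6, the assembly of mm10, read from the RefSeq genome. Capitals mark matches, on either strand, to short motifs. These were AGATAA for the blood factors of the GATA family, AGGAAG for factors of the ETS family, TGTGGT for those of the RUNX family, TGTTTAC for the forkhead factors themselves, ACAATG for the Sox factors and CAGATG for the E-box factors. Foxk2 (chr11:121259865-121260015), the member with the second-highest promoter signal in the conservative list and no other coding start within 1 kb, holds 32 CpG dinucleotides and none of these motifs. Sox4 (chr13:28953700-28953850) stands for the weakly open Sox promoters and holds 10 CpG and an ETS match. Foxs1 (chr2:152933745-152933895) had a strong region with 1 CpG. Sox6 (chr7:115846130-115846280), at an internal start site, also holds 1 CpG, with a GATA, a RUNX and an E-box match. The distal region in an intron of Foxo1 (chr3:52309025-52309175) holds an ETS match and GATA matches on both strands. The strongest distal region of all members (chr2:152406201-152406351), upstream of Sox12, holds 12 CpG and no match. The last sequence ends at the 5′ end of Sox2 (chr3:34650255-34650405), which holds 23 CpG and had no promoter region in the conservative list.
Foxk2 promoter region: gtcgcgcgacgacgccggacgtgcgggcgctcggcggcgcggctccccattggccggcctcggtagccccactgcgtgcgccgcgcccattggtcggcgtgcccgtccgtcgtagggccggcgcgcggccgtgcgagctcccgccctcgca
Sox4 promoter region: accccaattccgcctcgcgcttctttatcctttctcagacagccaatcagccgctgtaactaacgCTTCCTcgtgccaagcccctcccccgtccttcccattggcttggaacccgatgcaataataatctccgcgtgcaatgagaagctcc
Foxs1 promoter region: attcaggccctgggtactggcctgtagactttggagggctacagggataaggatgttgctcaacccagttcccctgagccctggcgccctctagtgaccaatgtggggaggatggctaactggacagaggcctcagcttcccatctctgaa
Sox6 promoter region: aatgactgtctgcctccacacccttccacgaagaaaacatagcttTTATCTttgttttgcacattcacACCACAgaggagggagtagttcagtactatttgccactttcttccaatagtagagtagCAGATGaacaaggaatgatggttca
Foxo1 distal region: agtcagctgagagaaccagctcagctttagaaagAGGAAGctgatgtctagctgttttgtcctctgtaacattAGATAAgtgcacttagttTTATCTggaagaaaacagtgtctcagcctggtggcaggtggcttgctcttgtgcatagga
Sox12 distal region: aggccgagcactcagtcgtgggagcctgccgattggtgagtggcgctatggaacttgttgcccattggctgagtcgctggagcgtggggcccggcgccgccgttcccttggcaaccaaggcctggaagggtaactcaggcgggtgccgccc
Sox2 bases before the 5′ end: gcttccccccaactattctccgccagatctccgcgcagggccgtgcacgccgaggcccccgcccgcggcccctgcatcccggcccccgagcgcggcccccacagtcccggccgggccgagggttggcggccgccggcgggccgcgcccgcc

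Promoters of 33 of the 63 genes were open in the conservative list, 26 of 44 Fox genes and 7 of 19 Sox genes. This is 52.4% of the members, 59.1% of the Fox genes and 36.8% of the Sox genes, against 59.9% of all protein-coding genes. The own list of replicate 1 held a promoter region for 27 members (42.9%, against 56.8% of all genes) and that of replicate 2 for 30 (47.6%, against 56.1%). Both own lists held one for 25 members, or 39.7%, against 54.8% of all genes. Of these 25, 21 were Fox genes and 4 were Sox genes, namely Sox4, Sox6, Sox12 and Sox30. The Hox genes, another family of developmental factors, had a promoter region at 10 of 39 (25.6%) and the Kruppel-like Klf genes at 13 of 17 (76.5%), so the Fox and Sox shares lay between theirs. In bulk libraries a region open in few cells and one weakly open in many cannot be told apart.

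Open promoters of the members carried lower signals than those of most genes. The median was 8.09 over the 33 members, 9.11 over the Fox genes and 7.06 over the Sox genes, against 11.25 over all genes with a promoter region. Only 6 of the 33 members (18.2%) lay above that all-gene median, namely Foxp3, Foxk2, Foxs1, Foxp4, Foxj3 and Foxj1. The 7 Sox genes lay between 6.42 and 8.09, all below it. In the replicates' own lists the member median averaged 8.24 ± 0.068 (SD, n = 2), and the all-gene median 10.95 ± 0.519.

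**Figure D1:**
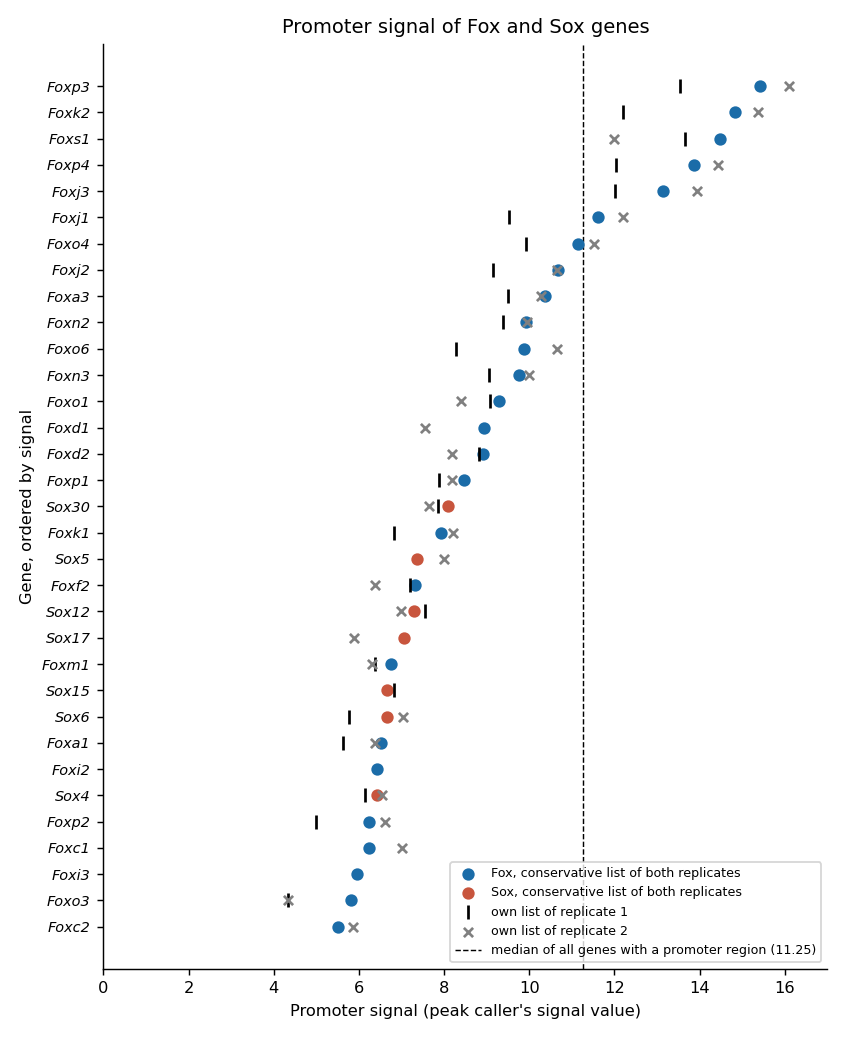
Promoter signal (x axis, the peak caller's value, no unit) of the 33 Fox and Sox genes with a promoter region in the conservative list, ordered by that value; coloured dots give the conservative list, black bars and grey crosses the own lists of replicates 1 and 2, and the dashed line the all-gene median. Only 6 Fox genes lie right of the line at 11.25, and the Sox genes lie between 6.42 and 8.09; a missing bar or cross means that the replicate's own list held no promoter region.

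The 4 FOXO genes, effectors of insulin and growth factor signalling, all had a promoter region in the conservative list and in both own lists. Their median signal in the conservative list was 9.58. Foxo4 had a signal of 11.1 in the conservative list, 9.91 in replicate 1 and 11.5 in replicate 2. Foxo6, known mainly from brain, had 9.87 in the conservative list, 8.29 in replicate 1 and 10.6 in replicate 2. Foxo1 had 9.28, 9.09 and 8.41, lower in replicate 2, where Foxo4 and Foxo6 were higher. Foxo3, the FOXO factor best known from blood stem cells, had the lowest promoter signal of the 4 and the second-lowest of the 33 in the conservative list, 5.82. Its strongest promoter region lies at an internal start site and was in neither own list, though the longer pseudoreplicated lists of each replicate held it at 5.40 and 5.30. At the start near its 5′ end the signal was 4.47 in the conservative list and 4.34 in each own list.

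Foxo3 ranked high by its distal regions. It had 13 distal regions in the conservative list, second to Foxk1, and 11 in each own list, where it came second in replicate 1 and first in replicate 2. Its own 5′ end was the nearest protein-coding one to each of the 13. Of these, 7 lie inside the gene and 6 upstream. The strongest lies 31.58 kb upstream (chr10:42308160-42308558, signal 11.9, 10.01 in replicate 1 and 9.87 in replicate 2) and holds a RUNX match. RUNX matches were in 5 of the 13 regions, ETS matches in 4 and GATA matches in 2. Over all distal regions RUNX matches were in 22.4%, ETS matches in 36.2% and GATA matches in 13.8%. Foxo1 had 6 distal regions, all nearest to its own 5′ end. The strongest, 40.76 kb downstream in an intron, had a signal of 12.7, with 9.75 in replicate 1 and 12.8 in replicate 2, and is the sequence with GATA and ETS matches printed above. Foxo4 had 3 distal regions and Foxo6 had 2.

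The 2 FOXK genes, whose products bind forkhead sites in starvation and metabolic programmes, differed in the same way. Foxk2 had a promoter signal of 14.8 (12.2 in replicate 1 and 15.4 in replicate 2) and 5 distal regions, none of them in both own lists. Foxk1 had a promoter signal of 7.92 (6.83 and 8.20) and 18 distal regions, the most of any member in the conservative list. It had 12 in replicate 1, again the most, and 10 in replicate 2, below Foxo3 and level with Foxj2 and Sox12. The Foxk1 regions were weak, with a median signal of 6.93 and a highest of 9.77 (chr5:142385321-142385714, 15.99 kb upstream). Of the 18, 9 lie inside the gene, 8 were in both own lists, and 13 had Foxk1 as the nearest 5′ end, the other 5 lying nearer to another gene.

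The 4 FOXP genes, repressors with roles in lymphocytes, lung and brain, all had promoter regions in both own lists. Foxp4 had a signal of 13.9 (12.04 and 14.4), and Foxp1, needed for B cell development, had 8.46 (7.85 and 8.19 in the same region) with 5 promoter regions spread over several start sites, the most of any member. Foxp2, known in humans for its part in speech, had 6.25 (4.99 and 6.60). Foxp3, the master factor of regulatory T cells, had a promoter signal of 15.4 (13.5 and 16.1), the highest of all members in the conservative list and in replicate 2, and second to Foxs1 in replicate 1. Its summit (region chrX:7574027-7574981) lies 770 bp downstream of the Foxp3 start but 131 bp from a start of Ppp1r3f, the gene of a glycogen-targeting phosphatase subunit, and the noncoding Flicr starts there too. None of the 4 T cell marker genes examined (Cd3e, Cd3g, Cd4 and Cd8a) had a promoter region, beside 59.9% of all genes. They had 3.00 distal regions per gene (all genes 4.20). Whether T cells in the libraries contributed to the Foxp3 region was not tested. ATAC-seq does not tell which of the genes sharing a region it serves.

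Of 6 Fox genes grouped as cell cycle and broadly expressed ones, 5 had a promoter region, beside 59.9% of all genes. Foxj3 had a signal of 13.1 (12.02 in replicate 1 and 13.9 in replicate 2), with its summit 79 bp upstream of an internal start and 53 bp from a start of Frg2f1. Foxj2 had 10.7 (9.16 and 10.7), Foxn2 9.93 (9.37 and 9.95) and Foxn3, a checkpoint repressor, 9.76 (9.05 and 9.99). These Foxj2 and Foxn3 regions lie at internal starts. The promoter region nearest the 5′ end had 8.88 (7.88 and 8.89) at Foxj2 and 4.44 (4.26 and 4.10) at Foxn3. Foxm1, the mitotic activator, had only 6.75 (6.38 and 6.32), with its summit 3 bp from a start of Rhno1, a DNA damage response gene on the other strand. Foxn4, placed in this group though a factor of retina and spinal cord, had none. Each of the 10 FOXM1 target genes examined had a promoter region, beside 59.9% of all genes. Their median signal was 12.51 (all genes 11.25), so the gene of the factor had a weaker promoter region than the typical target.

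Foxn2 and Foxj2 also stood among the members with most distal regions. Foxn2 had 12 (10 and 8 in the own lists), all nearest to its own 5′ end. Its strongest lies 27.08 kb upstream (chr17:88413250-88413992) at a signal of 18.7, with 15.7 in replicate 1 and 17.2 in replicate 2, higher in all 3 lists than its promoter. Foxj2 had 11 (10 and 10), of which 4 were nearest to it. The strongest of these, 17.2 (15.8 and 15.0), lies in a Foxj2 intron 14.65 kb downstream of the 5′ end. Foxj3 had no distal region within 50 kb.

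Of the SOXC genes, factors of progenitor cells in several tissues, 2 of 3 had a promoter region in the conservative list. Sox4 had a promoter signal of 6.42 (6.15 in replicate 1 and 6.55 in replicate 2) and Sox12 one of 7.30 (7.56 and 6.995), while Sox11, a neuronal factor, had none. All 7 distal regions of Sox4 were nearest to it, with a highest signal of 9.81 at 23.17 kb downstream. Sox12 had 11 distal regions (10 and 10), of which 3 were nearest to it. Among these was the strongest distal region of all members, 8.21 kb upstream (chr2:152405714-152406750), at a signal of 20.6, with 19.9 in replicate 1 and 19.3 in replicate 2. It is 1037 bp wide, against a median of 419 bp over all distal regions, and no annotated protein-coding start lies within 1 kb of its summit.

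Of the SOXD genes, which lack a transactivation domain, Sox6 had a signal of 6.65 at an internal start, where replicate 2 gave 7.03 and the own list of replicate 1 held only a neighbouring region at 5.76. Sox5, best known from cartilage with Sox6, had 7.37 at an internal start, 7.99 in replicate 2 and none in the own list of replicate 1. At its 5′ end, where only noncoding transcripts start, a region counted as distal had a signal of 6.10, with 6.29 in replicate 1 and none in the own list of replicate 2. Its strongest distal region, 36.24 kb upstream (chr6:144817424-144818505, signal 11.8, 12.1 in replicate 1 and 10.15 in replicate 2), holds ETS, RUNX and E-box matches. Sox13 had no promoter region in the conservative list and 4 distal regions.

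Of the SOXF genes, factors of endothelium and early blood formation, Sox17 had a signal of 7.06 in the conservative list and 5.88 in replicate 2, and none in the own list of replicate 1. Sox7 and Sox18 had no promoter region by the strongest summit. At Sox18 a region inside the gene (chr2:181670252-181670685, signal 9.69, 8.86 in replicate 1 and 9.29 in replicate 2) has its summit 1.11 kb downstream of the 5′ end and reaches into the 1 kb window. Foxd4 was the other member of this kind, with a region of signal 8.80 (8.92 and 8.70) at 1.44 kb downstream. Counting any part of a region, 35 members had a promoter region.

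The SOXB and SOXE genes, factors of neural stem cells, neural crest and testis, had no promoter region in the conservative list at any of their 5 and 3 members. Sox8 alone of them was in an own list, that of replicate 1 at 6.93. Sox2, the pluripotency factor, had a single distal region, 9.51 kb upstream (signal 9.56, 8.43 in replicate 1 and 8.56 in replicate 2). Sox1, Sox3, Sox9 and Sox11 had neither a promoter region nor a distal region in the conservative list. The remaining Sox genes, Sox30 of the testis (8.09, 7.87 and 7.64) and Sox15 of muscle progenitors (6.66, with 6.83 in replicate 1 and none in the own list of replicate 2), both had a promoter region.

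Among Fox genes of embryonic tissues the picture was mixed. Of the FOXA genes, pioneer factors of liver and gut, Foxa1 had a signal of 6.52 (5.63 and 6.37), and Foxa3 had 10.4 (9.50 and 10.3) with its summit 735 bp upstream of its start and 104 bp from a start of Sympk, a polyadenylation factor gene. Foxa2 had no promoter region, and its strongest distal region lies 35.51 kb upstream at 15.8 (12.6 and 14.7). Of the 8 mesoderm genes 4 had a promoter region. Foxs1 had 14.5 (13.6 in replicate 1 and 11.99 in replicate 2), below Foxp3 and Foxk2 in the conservative list, above all other members in replicate 1 and below 5 of them in replicate 2. Its 5′ end is poor in CpG, with an observed over expected ratio of 0.39. The others were Foxf2 with 7.31 (7.20 and 6.39), Foxc1 with 6.24 and Foxc2 with 5.51. Foxc1 and Foxc2, factors of vessel development, were in the own list of replicate 2 only, at 7.01 and 5.85, and Foxc2 had the lowest promoter signal of the 33 in the conservative list. Foxf1, Foxl1, Foxl2 and Foxq1 had none.

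Of the 17 other tissue factors 5 had a promoter region. Foxj1, the regulator of motile cilia, had 11.6 (9.53 and 12.2). Foxd2 had 8.90 (8.82 and 8.19), and Foxd1, a kidney stroma factor, had 8.94 with 7.56 in replicate 2 and none in the own list of replicate 1. Foxi2 at 6.43 and Foxi3 at 5.95 were in neither own list. The 12 without a promoter region included Foxb1, Foxb2, Foxd3, Foxd4, Foxe1, Foxe3, Foxh1, Foxi1, Foxn1, Foxr1 and Foxr2. Foxc2, Foxf1 and Foxl1 are neighbours on chromosome 8 and share distal regions, of which the strongest (chr8:121113294-121113637, 14.7, with 13.9 in each replicate) lies 2.71 kb upstream of Foxc2. Foxd2 and Foxe3 share another (chr4:114947227-114947738, 18.2, with 15.0 in replicate 1 and 17.9 in replicate 2).

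The replicated list, a longer list of another kind that the authors made from both libraries, held a promoter region for 47 members (74.6%, against 67.9% of all genes), 32 Fox genes (72.7%) and 15 Sox genes (78.9%). The 14 members found there and not in the conservative list included Foxa2, Foxb2, Foxe1, Foxe3, Foxl2, Sox1, Sox2, Sox3, Sox7, Sox8, Sox11, Sox13 and Sox21, and the 14 had signals from 2.68 at Sox21 to 6.39 at Sox8. They make up 22.2% of the members and 42.1% of the Sox genes. Over all protein-coding genes 8.53% were missing from the conservative list but in the replicated list or a list of a single replicate. The other 16 members had no promoter region in the conservative list, the replicated list or any list of a single replicate, 25.4% against 31.6% of all genes. Foxb1, Foxd3, Foxd4, Foxf1, Foxh1, Foxi1, Foxl1, Foxn1, Foxn4, Foxq1, Foxr1, Foxr2, Sox9, Sox10, Sox14 and Sox18 were these 16.

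CpG content separated the members less than it separated genes at large. CpG content was taken as the observed over the expected number of CpG dinucleotides within 500 bp on each side of the 5′ end, and classed as low (below 0.4), middle, or high (above 0.75). Of the 35 members with high CpG content 22 had a promoter region (62.9%, against 90.8% of all genes of that class). Of the 20 in the middle class 9 had one (45%, against 76.4%), and of the 8 in the low class 2 had one (25%, against 25.2%), Foxs1 and Foxj3. In the conservative list the gap at high CpG content was wider for Sox genes, at 4 of 12 (33.3%), than for Fox genes, at 18 of 23 (78.3%). Hox genes had 3 of 11 (27.3%). Another 6 Sox genes of this class had one only in the replicated list or a list of a single replicate, and 2 had none. These counts were 2 and 3 for Fox genes, and 2 and 6 for Hox genes. Over all genes of the class the shares were 5.52% and 3.66%. Much of the Sox gap thus lay in passing the conservative list's threshold. The high class genes without a promoter region in that list were Foxd3, Foxe3, Foxf1, Foxl1, Foxl2, Sox1, Sox2, Sox3, Sox7, Sox9, Sox11, Sox13 and Sox18. The median ratio was 0.82 in the 33 members with a promoter region and 0.70 in the 30 without, while over all genes these medians were 0.71 and 0.21. For some members, among them Foxj3, Foxp1, Sox5 and Sox6, the class was taken at a 5′ end that is not the start site of their promoter regions.

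**Figure D2:**
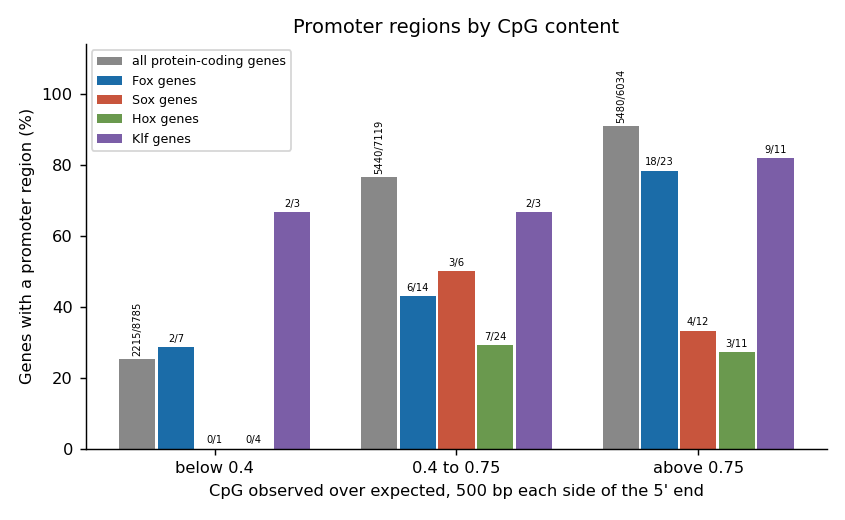
Share of genes with a promoter region in the conservative list (y axis, %) by class of CpG observed over expected at the 5′ end (x axis), for all protein-coding genes and 4 gene families, with the counts above the bars. In the class above 0.75 the share was 90.8% over all genes, 78.3% for Fox and 33.3% for Sox genes. Another 6 Sox genes of that class had a promoter region in another list only, and several bars rest on few genes.

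The strongest summit of the 33 members was 146 bp from the nearest start at the median, against 66 bp over all genes, and 21 of 33 lay within 200 bp (63.6%, all genes 79.4%). Beyond 500 bp lay 9 of 33 (27.3%, all genes 8.73%), among them Foxs1 (612 bp upstream), Foxa3 and Foxp3. In 25 the summit was upstream (75.8%, all genes 74.3%) and in 8 downstream. All 48 promoter regions of the members had a median width of 593 bp (214 to 1473), against 773 bp over all promoter regions of the list. Members with several annotated start sites had a promoter region in 17 of 26 (65.4%, all genes 68.0%), and those with a single one in 16 of 37 (43.2%, all genes 47.0%).

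Distal regions around the members were about as many as around other genes. Members had 4.27 on average (Fox 4.70, Sox 3.26), against 4.20 over all protein-coding genes, with 3.41 for Hox and 6.12 for Klf genes. In the own lists the mean was 3.04 ± 0.101 for the members and 3.06 ± 0.043 for all genes (SD, n = 2). At least 1 distal region was listed for 55 members (87.3%, against 82.0%) and at least 10 for 5 (7.94%, against 8.13%), namely Foxk1, Foxo3, Foxn2, Foxj2 and Sox12. None was listed for Foxa1, Foxb2, Foxj3, Foxp2, Sox1, Sox3, Sox9 and Sox11. Of the next members by count, Foxn3 had 9 (8 in replicate 1 and 5 in replicate 2), Foxe3 and Sox18 had 8 each (6 and 5 for both), and Foxa3 had 7 (6 and 6), as had Foxd2 (6 and 5).

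**Figure D3:**
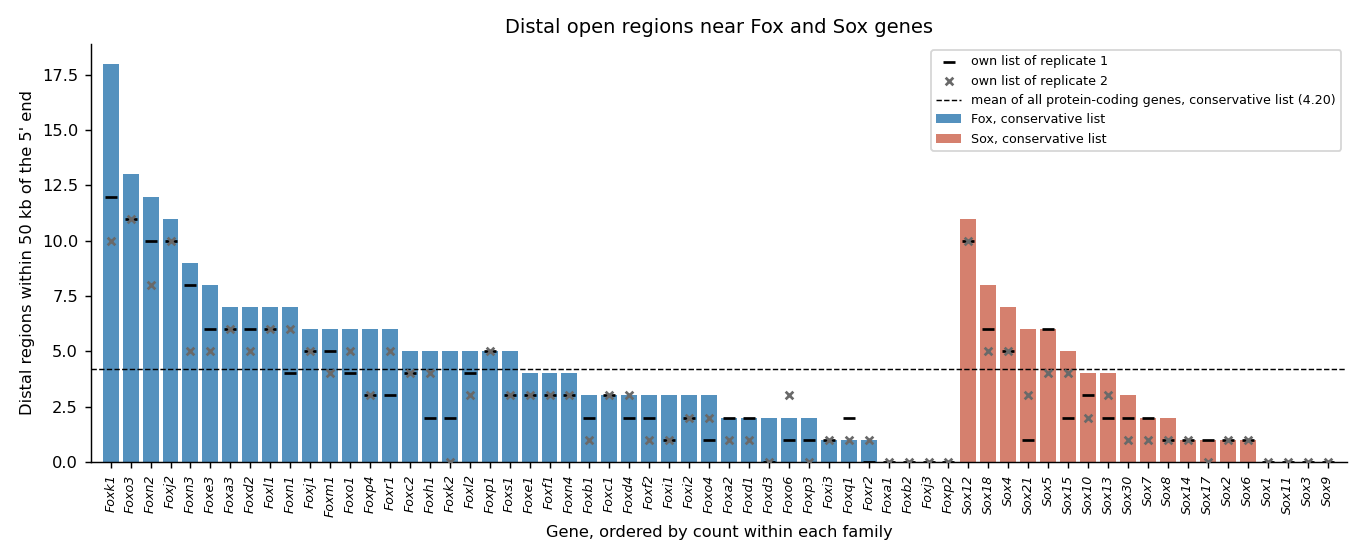
Number of distal regions within 50 kb of the 5′ end (y axis) for the Fox and Sox genes named in the text (x axis); bars give the conservative list, black dashes and grey crosses the own lists of replicates 1 and 2, and the dashed line the all-gene mean of 4.20. Foxk1 leads with 18, Sox12 leads the Sox genes with 11, and 8 members have no bar.

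The members' distal regions came to 254 different regions, 11 of them within reach of several members. Introns held 104, exons 26 and intergenic sequence 124. A member was the nearest gene by 5′ end for 159 of the 254, so the other regions lie nearer to a gene outside the families. Their median signal was 7.82, against 8.74 over all 65549 distal regions. Both own lists held 57.9% of them, against 59.7% of all distal regions, and 51 were in neither. At Foxp1 and Sox5, regions beside the gene's 5′ end were counted as distal because only noncoding transcripts start there.

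**Figure D4:**
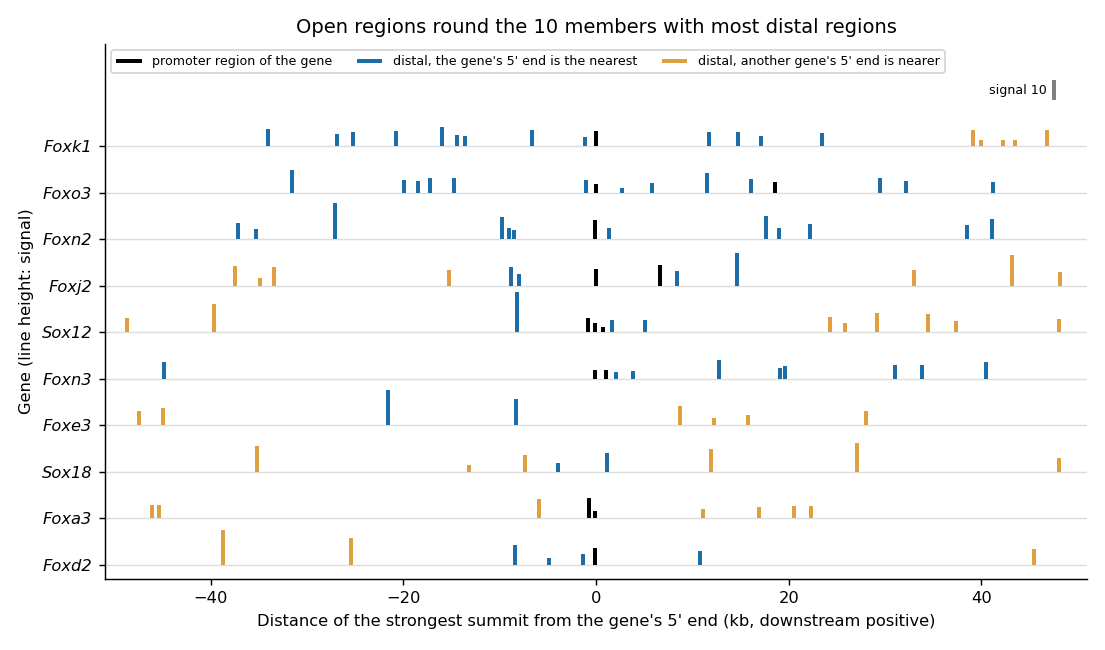
Open regions of the conservative list around the 5′ ends of the 10 members with most distal regions; the x axis is the distance of the summit from the 5′ end in kb with downstream positive, and line height is the signal. All distal regions of Foxo3 and Foxn2 are nearest to their own 5′ end (blue), while only 3 of the 11 at Sox12 are, the tallest of which is the region 8.21 kb upstream.

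In distal regions, short motifs of blood regulators were no more frequent at the members than elsewhere. Within 75 bp of the summit, the GATA motif was in 12.6% of the 254 distal regions (13.8% of all distal regions), the ETS motif in 28.0% (36.2%), the RUNX motif in 15.0% (22.4%) and the E-box in 12.6% (14.8%). The families' own motifs were rare, with the FOX motif in 1.57% (1.66%) and the SOX motif in 3.54% (7.53%). In the 48 promoter regions the shares were 2.08% for GATA (4% of all promoter regions), 18.8% for ETS (22.8%), 4.17% for RUNX (8.72%), 10.4% for the E-box (6.65%), 2.08% for FOX (1.18%) and 0% for SOX (3.24%). A match is a run of letters and not a bound site.

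The replicates gave like values at the members. Of the promoter regions of members in replicate 1, 88.9% had a counterpart in replicate 2, and of the distal regions 80.4%. The share was 84.6% over all regions, promoter and distal together, so it is not a like comparison for either kind. By gene, 32 members had a promoter region in either own list, and 7 of them in only 1 list. Over all genes these counts were 12759 and 736. Of the 25 members with a promoter region in both own lists, 17 had the higher signal in replicate 2. On the log2 scale replicate 2 differed from replicate 1 by 0.14 at the median of these members, with a range from -0.19 to 0.41, against 0.09 over all genes with an SD of 0.13. Foxk2, Foxp4, Foxj1 and Foxo6 were among those higher in replicate 2, and Foxs1 was lower there.

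Genes that act with these factors were read from the same lists. All 15 genes examined of the FOXO signalling pathway had a promoter region in the conservative list, beside 59.9% of all genes. Akt1, for example, had 6.41, with 6.13 in replicate 1 and 6.37 in replicate 2. All 15 FOXO target genes had one too. Among them were the insulin receptor gene Insr (11.5, 9.93 and 12.1) and Il7r (16.2, 13.7 and 14.4). The cell cycle inhibitor gene Cdkn1b (6.76, 6.34 and 7.12) was another. The median signals were 10.68 for the pathway and 10.08 for the targets, both below the 11.25 of all genes. The targets had 7.87 distal regions per gene (all genes 4.20). Of 10 other HMG-box genes 8 had a promoter region (Sry and Tcf7 did not), and of 10 partner genes 9 (Pou3f2 did not).

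The conservative list held 80938 regions with a median signal of 8.90, and the own lists 61735 and 60098. Promoter regions were listed for 9 of 12 megakaryocyte marker genes, beside 59.9% of all genes. Their median signal was 6.01 (all genes 11.25), with 9.08 distal regions per gene (all genes 4.20). They were also listed for 4 of 6 erythroid, 4 of 6 granulocyte, 3 of 6 monocyte and macrophage, 3 of 6 endothelial, 0 of 4 T cell and 1 of 4 B cell markers, so several of these lists lay near the share of all genes. Cells of other types in the libraries could add regions at any member, and their part was not tested.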

How the data were processed

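ATAC-seq peak lists of 2 libraries were analysed on mm10, per the labels. Signal values are those of the authors' peak caller, as deposited, with no normalization stated. Read depth is unknown, and for the aligner, the peak caller, the transposase shift and the handling of duplicates the answer is: not given in the sources used here. Signal tracks and the ranked lists were not used here.

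Summits of the same interval were joined to a region, which took the signal and place of its strongest summit. Genes came from GENCODE M21 on 21 chromosomes (54361 protein-coding start sites, mitochondrial genes left out). Regions matched between replicates when 50% of either was covered. Work was done in python 3.11.15 with pandas 2.3.3, pysam 0.24.0 and samtools 1.23.1, and checked on simulated regions. Alternatives were other lists, windows, transcripts, signal minimums and each replicate alone. The members and lists were chosen with earlier results of these data known. The rule for named genes accounts for every member, of which some are counted but not reported here by name, and gives library values for the highest and lowest promoter signals, the most distal regions and the role groups. Pathway genes named as examples were chosen after their values were seen.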

Additional observations from a re-analysis of the deposited data

How the results depend on the processing

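The 33 members with a promoter region became 15, with 15 Fox and 0 Sox genes, when only regions at or above the median signal were kept. The other alternatives gave 27 to 47. Sox genes numbered 15 in the replicated and 14 in the pseudoreplicated list of both libraries, against 7. The median promoter signal of 8.09 became 6.66 in both of these lists, 8.19 to 8.29 when 1 replicate was left out, 10.66 with regions at or above the median signal, 7.37 and 8.63 with windows of 0.5 and 2 kb, 7.31 with the gene's 5′ end only, and 8.28 with every annotated transcript. Placing regions by any summit or by any part, alternatives chosen after seeing the data, gave 8.01 and 8.80. The mean of 4.27 distal regions per member became 4.06 in the IDR-thresholded, 7.03 in the replicated and 6.95 in the pseudoreplicated list. It was 2.97 to 3.11 when 1 replicate was left out, 1.65 with regions at or above the median signal, and 1.97 and 8.29 with windows of 20 and 100 kb. Lists and windows that hold more regions raise such counts by construction. Of the promoter signals of single members under the alternatives, 115 were equal or moved by less than the spread between replicates, and 24 moved by more. The other lists of both libraries and the signal minimum repeated the main signals, so most of the 115 could not move. All 24 came from leaving out 1 replicate. For 8 members without a spread between replicates 23 were equal and 6 differed. Of the distal counts of members with at least 6, 78 stayed within 1.5 times and 42 did not. With 2 libraries of unknown depth, a missing region at the weakly open Sox promoters cannot be told from one under the threshold. No paired analysis was possible because there was 1 group.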

Other observations

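Most noncoding genes named after members had no region at a start site in the conservative list. The share over all noncoding genes was not computed, so whether this is unusual cannot be told. Of 12 such genes with a start site of their own, Sox5os5 had a region of signal 12.1 (10.1 in replicate 1 and 12.1 in replicate 2), above the 7.37 of the Sox5 promoter. Foxd2os had the region of signal 8.90 that it shares with Foxd2. The other 10, which include Sox2ot with its 18 start sites, had none in the conservative list.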
